A study of Mus musculus with 2 samples.

Results

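Meiotic recombination was followed through the transcripts of 8 genes, Prdm9, Dmc1, Meiob, Spata22, Msh4, Msh5, Mlh3 and Hfm1, out of the 36547 genes counted in the testes of 12-week-old C57BL/6 mice. The 8 genes were taken by name and not by a rule on their values. Earlier results of these data were known when they were chosen. Single-cell RNA was compared between wild-type (WT) testis and testis of Alkbh5-/- (KO) mice, in which the gene of the RNA demethylase ALKBH5 was knocked out, and the study asked how spermatogenesis differs without it. Each genotype gave 1 library. The methods name 3 WT and 3 KO mice without saying that their testes were pooled, and the introduction speaks of 1 mouse of each genotype, so how many animals a library holds is uncertain. The KO mice were bred from Alkbh5 heterozygotes. With 1 library per genotype no difference has a replicate check, so no p-value is given. Every interval below is an exact 95% interval that covers counting error only.

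In meiosis, the cell cuts its own DNA and repairs the breaks from the homologous chromosome, which pairs the homologs and leaves crossovers that hold them together until they separate. PRDM9 is a histone methyltransferase whose zinc fingers choose the break sites, and DMC1 is the meiotic recombinase that coats the cut strand and searches the homolog. MEIOB and SPATA22 form a complex on single-stranded DNA, MSH4 and MSH5 form a pair that stabilizes joined DNA, HFM1 is a helicase needed for crossovers, and MLH3 is part of the endonuclease that resolves the joints late in prophase.

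In GENCODE vM21 on GRCm38 all 8 genes were protein coding. Prdm9 (chr17:15543079-15564354, minus strand), Meiob (chr17:24804289-24839788, plus strand) and Msh5 (chr17:35028605-35046745, minus strand) lay on 1 chromosome. Dmc1 lay at chr15:79561497-79605109, Msh4 at chr3:153857149-153906138, Mlh3 at chr12:85234520-85270599 and Hfm1 at chr5:106840192-106926321, all on the minus strand. Spata22 lay at chr11:73329741-73346044 on the plus strand and shared 1025 of its exon bases, 80.46% of them, with the same-strand protein-coding gene Gm49340, which was not analysed here. Reads in those exons could not be told apart by gene, so the low Spata22 counts below are uncertain.

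RefSeq start sites on GRCm38.p6 were given for 7 of the 8 genes. The 250 bases before the start are shown for 3 genes with an early or a later peak, each with a start site at the same base as the GENCODE gene. Prdm9 and Dmc1 were highest early in meiosis and Mlh3 later. Capitals mark matches to the STRA8-associated motif CNCCTCAG or the E2F motif GGCGGGAA, searched on both strands. The windows are Prdm9 chr17:15564355-15564604, Dmc1 chr15:79605110-79605359 and Mlh3 chr12:85270600-85270849, each read 5′ to 3′ on the minus strand.
Prdm9: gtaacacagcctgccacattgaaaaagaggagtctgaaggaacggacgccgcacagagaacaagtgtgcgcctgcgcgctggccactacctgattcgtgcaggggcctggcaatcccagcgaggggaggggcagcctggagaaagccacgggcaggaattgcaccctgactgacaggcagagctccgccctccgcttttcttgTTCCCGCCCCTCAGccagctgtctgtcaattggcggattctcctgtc
Dmc1: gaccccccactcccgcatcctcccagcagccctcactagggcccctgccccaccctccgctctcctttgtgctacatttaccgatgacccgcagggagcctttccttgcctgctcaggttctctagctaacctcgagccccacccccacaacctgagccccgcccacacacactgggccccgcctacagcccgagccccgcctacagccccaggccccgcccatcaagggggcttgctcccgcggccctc
Mlh3: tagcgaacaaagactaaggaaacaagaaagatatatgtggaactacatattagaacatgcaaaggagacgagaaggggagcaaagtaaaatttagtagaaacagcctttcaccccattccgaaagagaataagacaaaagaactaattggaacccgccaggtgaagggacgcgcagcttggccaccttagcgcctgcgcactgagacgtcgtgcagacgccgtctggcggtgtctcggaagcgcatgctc
The Prdm9 window held 1 E2F match 47 bases before the start and 1 STRA8-associated match 41 bases before it, and the pair shared bases. Neither motif was in the Dmc1 or the Mlh3 window. Of 32851 windows of the same length, 6.42% held the STRA8-associated motif and 1.86% the E2F motif. The MYB core AACNG was in the Prdm9 and Mlh3 windows, not in that of Dmc1, and in 74.2% of all windows. Outside the 3 windows shown, Msh5 held 1 match of each of the first 2 motifs and Hfm1 held 1 STRA8-associated match, at start sites inside the GENCODE gene. The window of the other Prdm9 start site, also inside its gene, held neither of these motifs. G and C made up 60.8% of the Prdm9 window, 68.8% of the Dmc1 window and 48.8% of the Mlh3 window, against a median of 52.4%. A match of letters is a description of the window and not a measured binding site.

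The WT library held 5756 cell barcodes and 80283221 unique molecular identifiers (UMIs, 1 per captured RNA molecule), and the KO library 7012 barcodes and 82056760 UMIs. The cells fell into 16 clusters, 12 of them of germ cells, built without the recombination genes and named from markers that include no gene of these lists. Alkbh5 had 607 UMIs in WT and 5 in KO, in the direction of the labels. The spermatogonia-like cluster held 163 WT and 920 KO cells and the early spermatocyte-like cluster 66 and 266. Of the late spermatocyte-like clusters, the one led by Piwil1 held 359 and 367 cells and the one led by Aurka 732 and 655. Other clusterings, given below, named fewer cells late spermatocyte-like and more cells early round spermatid-like, so the Aurka cluster may hold round spermatids. The libraries shared 45 barcode sequences, 2 of them in the early spermatocyte-like cluster of either library.

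Prdm9, which sets the break sites, was nearly confined to the 2 earliest germ cell clusters. In early spermatocyte-like cells it reached 197 UMIs per 1000000 UMIs of the cluster (CPM; interval 161 to 239, 105 UMIs) in WT and 264 CPM (241 to 289, 483 UMIs) in KO. A Prdm9 UMI was found in 56.1% of these cells in WT and in 69.5% in KO. In spermatogonia-like cells it stood at 35.3 CPM in WT and 30.3 CPM in KO, that is, 17.9% of its WT peak. Every later germ cell cluster lay between 0.19 and 2.72 CPM. These later levels were no higher than those of Leydig-like cells, which make steroids and should lack Prdm9, at 7.11 CPM in WT and 4.0 CPM in KO. The part of stray RNA in them was not tested. The median depth was 7066.5 UMIs in the WT early spermatocyte-like cells and 9921.5 UMIs in the WT Leydig-like cells.

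Dmc1, the meiotic recombinase, had the same peak and a longer tail. It reached 259 CPM (218 to 306, 138 UMIs) in the WT early spermatocyte-like cells and 355 CPM (328 to 384, 649 UMIs) in those of KO, with a UMI in 74.2% and 85.3% of the cells. In spermatogonia-like cells Dmc1 was at 49.98 CPM in WT and 63.4 CPM in KO. In the Piwil1 cluster it was at 0.88 CPM in WT and 2.99 CPM in KO, below the Leydig-like level of 3.05 CPM in WT and 7.80 CPM in KO. Low Dmc1 counts then returned in spermatids. The unnamed spermatid cluster led by Fam71b and Cst13 had 9.94 CPM (7.42 to 13.03) in WT and 15.9 CPM (12.5 to 19.9) in KO, with a UMI in 13.7% and 18.4% of its cells. The KO interval lay above that of KO Leydig-like cells (6.19 to 9.71), and the WT interval overlapped that of WT Leydig-like cells (0.63 to 8.91).

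Meiob, which encodes a single-strand binding protein, was almost absent from the spermatogonia-like cluster. It had 3 UMIs in the 163 WT spermatogonia-like cells (2.00 CPM) and 19 UMIs in the 920 KO cells (2.56 CPM). In early spermatocyte-like cells it stood at 273 CPM (230 to 321, 145 UMIs) in WT and at 180 CPM (161 to 200, 328 UMIs) in KO, and these intervals did not overlap. A Meiob UMI was seen in 68.2% of the WT cells and 46.2% of the KO cells. Meiob then dropped to 10.5 CPM in WT and 17.5 CPM in KO in the Piwil1 cluster, and to 4.61 CPM or less in all later germ cell clusters. Among spermatogonia-like cells Meiob was thus far below its peak, while Dmc1 was already well above the somatic cells.

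Spata22, the partner of Meiob, was the most thinly counted of the 8 genes, with 36 UMIs in the whole WT library and 57 in KO. Its level in early spermatocyte-like cells was 20.7 CPM (10.3 to 37.0, 11 UMIs) in WT and 12.0 CPM (7.55 to 18.2, 22 UMIs) in KO. In the Piwil1 cluster it was 2.77 CPM and 3.70 CPM. No other germ cell cluster had more than 3 UMIs, and the WT spermatogonia-like cells had 0 UMIs. That allows a level of up to 2.46 CPM by the exact interval and 2.00 CPM by a limit of 3 counts.

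Hfm1, the crossover helicase, was high early and then persisted. It reached 274 CPM (232 to 323, 146 UMIs) in WT and 320 CPM (294 to 347, 584 UMIs) in KO in early spermatocyte-like cells. In the Piwil1 cluster it held 28.7 CPM (25.1 to 32.7) in WT and 56.7 CPM (51.3 to 62.6) in KO, with a UMI in 32.9% and 45.0% of the cells. From there it lay between 5.51 and 22.5 CPM up to the cluster led by Fam71b and Cst13, against 6.10 and 3.51 CPM in WT and KO Leydig-like cells. The elongating spermatid-like clusters had 1.52 to 3.97 CPM.

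Msh5 followed the early pattern at lower counts. It stood at 52.6 CPM (35.0 to 76.1, 28 UMIs) in WT and 48.2 CPM (38.6 to 59.4, 88 UMIs) in KO in early spermatocyte-like cells. It then stepped down through 12.4 and 11.7 CPM in the Piwil1 cluster and 7.64 and 6.63 CPM in the Aurka cluster. The intervals of the genotypes overlapped at each of these stages.

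Msh4, whose protein pairs with MSH5, took another course than its partner gene. It had a first maximum of 35.7 CPM (21.5 to 55.8) in WT and 33.4 CPM (25.5 to 42.9) in KO in early spermatocyte-like cells. After 3.78 to 9.67 CPM in late spermatocyte-like and early round spermatid-like cells its level was high again in the mid round spermatid-like cluster, at 33.8 CPM (30.6 to 37.2, 404 UMIs) in WT and 47.5 CPM (43.3 to 52.0, 468 UMIs) in KO. Among the 12 germ cell clusters, its highest level was in the round spermatid-like cluster led by Cd46. It stood there at 42.1 CPM (37.5 to 47.1) in WT and 53.9 CPM (48.4 to 59.8) in KO, with a UMI in 48.7% and 51.1% of the cells. Together the mid round and Cd46 clusters held most of the Msh4 UMIs in each library. The share of cells with a UMI in the Cd46 cluster was far above the 1.09% and 1.29% of Leydig-like cells. Of the next levels in order, the interval of the Cd46 cluster overlapped that of the early spermatocyte-like cluster in WT and that of the mid round cluster in KO. In the GENCODE annotation, 1.81% of the Msh4 exon bases lay opposite the snoRNA Gm24395, and whether counting used strand is not given in the sources used here.

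Mlh3, of the late-acting endonuclease, was the only member highest in the Piwil1 cluster. There it reached 58.1 CPM (52.9 to 63.7, 461 UMIs) in WT and 82.9 CPM (76.3 to 89.9, 583 UMIs) in KO, and 65.2% and 67.6% of the cells had a UMI. The WT interval overlapped that of early spermatocyte-like cells (24.4 to 60.3), and the KO interval overlapped no other. It was also present in spermatogonia-like cells, at 33.3 CPM in WT and 30.7 CPM in KO, and in early spermatocyte-like cells at 39.5 and 36.7 CPM, 2 stages whose intervals overlapped in both libraries. The Aurka cluster had 19.8 and 20.9 CPM and all spermatid clusters 1.70 CPM or less. Mlh3 was the member with the clearest somatic signal, with a UMI in 9.78% of the WT and 9.51% of the KO Leydig-like cells.

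**Figure D1:**
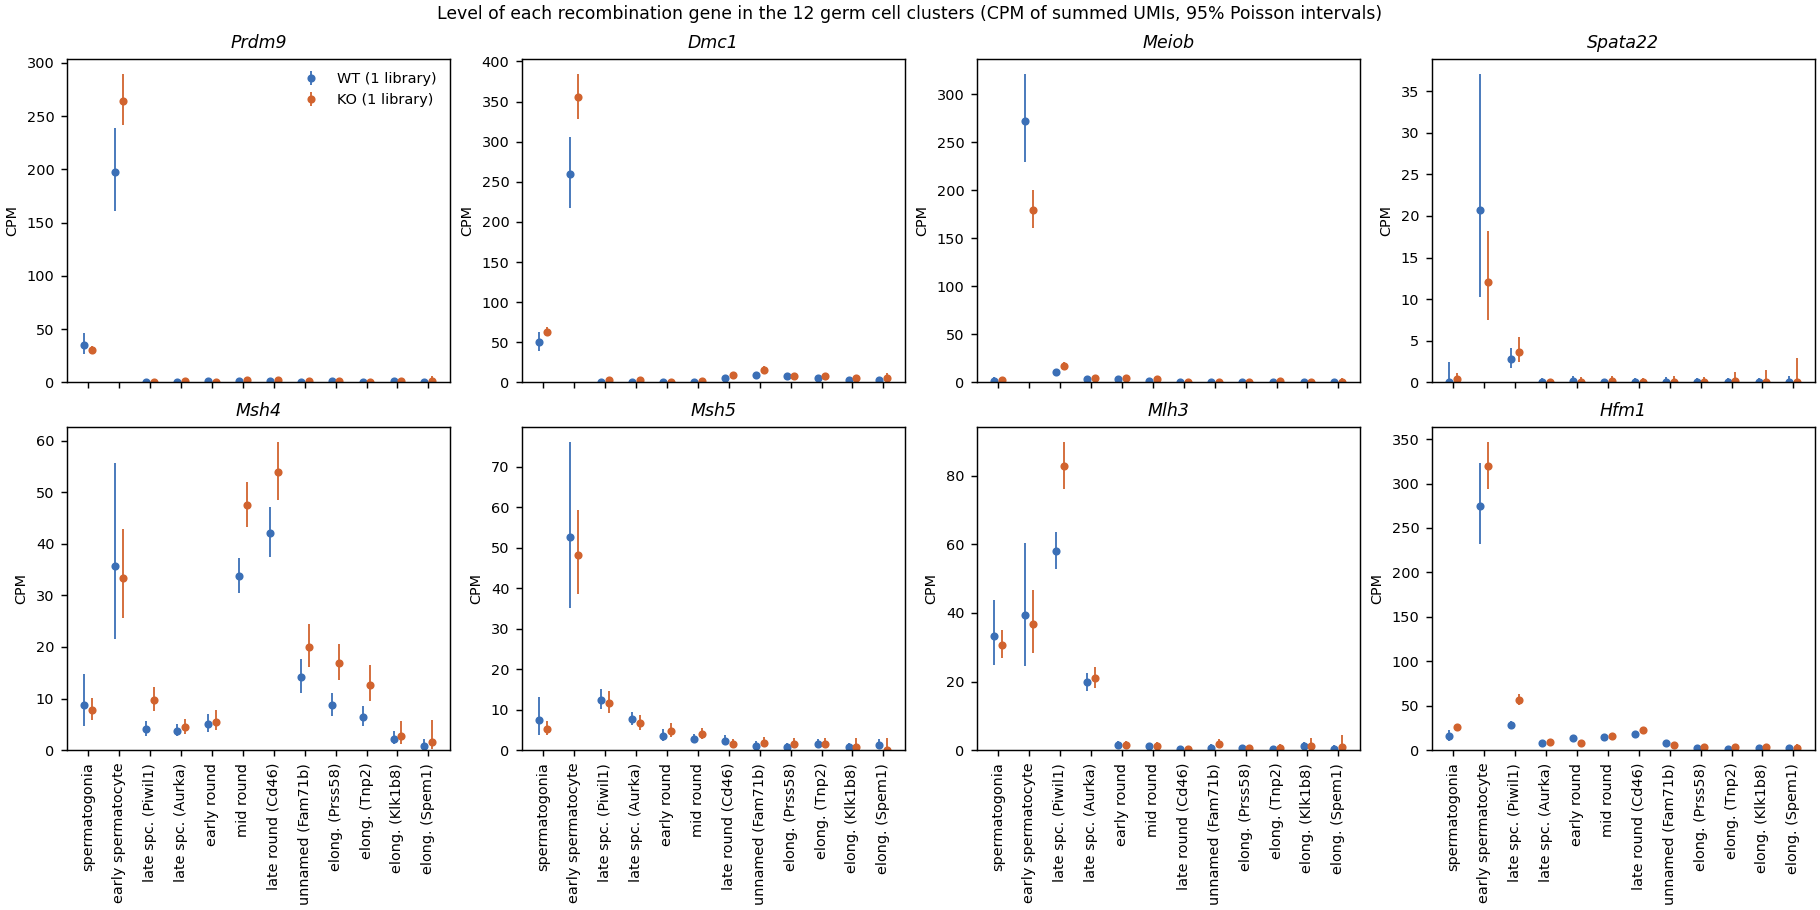
The level of each of the 8 genes, in CPM of summed UMIs, across the 12 germ cell clusters, with WT and KO as points (1 library each) and exact 95% Poisson intervals as bars; each panel has its own axis from 0. Prdm9, Dmc1, Meiob, Spata22, Msh5 and Hfm1 peak in early spermatocyte-like cells in both libraries, Mlh3 in the Piwil1 cluster and Msh4 in the Cd46 cluster.

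In both libraries 6 of the 8 genes were thus highest in early spermatocyte-like cells. Over the 11568 genes with at least 500 germ cell UMIs, 16.1% were highest there in WT and 16.1% in KO. That floor was not set for the 8 genes or the other list genes, and Spata22 lay under it, so the shares are not strictly alike. The other 53 genes of the recombination lists showed the same stage most often, with 32 highest there in each library and 28 of them in both. By role these were 9 (WT) and 10 (KO) of 11 genes of break formation, 1 and 2 of 6 genes of end resection, 15 and 12 of 20 genes of strand binding, and 7 and 8 of 16 crossover genes. None of the 53 was highest in a spermatid cluster, where Msh4 was highest among the clusters. The Aurka cluster, which may hold round spermatids, is not counted as a spermatid cluster here, and some of the 53 were highest in it. The Cd46 cluster was the highest stage for 7.65% of the 11568 genes in WT and 7.62% in KO.

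Cells of the meiotic clusters were divided further into 14 sub-clusters, again without the recombination genes. Of the 14, the Prss52 and Cst13 sub-cluster and the Prm1 and Klk1b8 sub-cluster were led by spermatid genes, and Scrublet called 63.9% and 87.2% of their cells doublets. The early spermatocyte-like cluster consisted mainly of 2 of them, named here by their leading genes. The Six5 and Prss50 sub-cluster (36 WT and 200 KO cells in all) took 34.8% of the 66 WT cells and 50.8% of the 266 KO cells, and the Rad51ap2 and Ccnb3 sub-cluster (34 and 126 cells) took 51.5% and 44.0%. Stra8, a gene switched on at meiotic entry, was at 2842 CPM (WT) and 1910 CPM (KO) in the former and at 163 and 447 CPM in the latter. The spermatogonia-like cluster gave 33.1% of the Six5 and Prss50 cells and 78.5% of the Prss52 and Cst13 cells. The levels of that cluster given above include these cells.

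Prdm9 was highest in the Six5 and Prss50 sub-cluster, with 233 CPM (179 to 298) in WT and 261 CPM (234 to 290) in KO. In the Rad51ap2 and Ccnb3 sub-cluster it was at 163 CPM (118 to 221) and 174 CPM (149 to 203). The KO intervals of these sub-clusters did not overlap, and the WT ones did. Dmc1 went the other way, from 188 CPM in WT and 274 CPM in KO to 272 and 335 CPM, with overlapping intervals in both libraries.

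The genes of later steps were concentrated in the Rad51ap2 and Ccnb3 sub-cluster. Meiob went from 37.0 CPM in WT and 23.0 CPM in KO in the Six5 and Prss50 cells to 498 CPM (416 to 592) and 319 CPM (283 to 357). A Meiob UMI was seen in 94.1% of these WT cells and 78.6% of these KO cells. Hfm1 went from 122 and 121 CPM to 401 and 438 CPM, and Msh4 from 11.1 and 9.98 CPM to 73.9 and 56.0 CPM. Both libraries had their highest level of Dmc1, Meiob, Spata22, Msh4, Msh5 and Hfm1 among meiotic sub-clusters here. The interval met that of the next sub-cluster for Dmc1 in both libraries, for Spata22 in KO and for Msh4 and Msh5 in WT. Msh4 was here also above its level in the Cd46 cluster of round spermatid-like cells (42.1 CPM in WT and 53.9 CPM in KO). Its intervals here (44.5 to 115 in WT and 41.8 to 73.4 in KO) overlapped those of the Cd46 cluster.

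A sub-cluster of late spermatocyte-like cells led by Gml and Hist1h1t, with 104 WT and 128 KO cells, held the peak of Mlh3, at 87.5 CPM (73.4 to 104) in WT and 126 CPM (110.4 to 143.1) in KO. There Prdm9 had only 3 UMIs in WT and 2 in KO. Hfm1 still had 99.1 and 165 CPM and Meiob 23.8 and 52.0 CPM. Along a late spermatocyte minus spermatogonia marker score, the highest sub-cluster was that of Prdm9 first, Dmc1, Meiob, Hfm1, Msh4 and Msh5 next and Mlh3 last in both libraries. With the overlaps of intervals given above, the order of Prdm9 and Dmc1 is uncertain. The score is not a time course. It put the Esx1 and Mki67 sub-cluster, 100% from the spermatogonia-like cluster, after the Six5 and Prss50 sub-cluster.

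**Figure D2:**
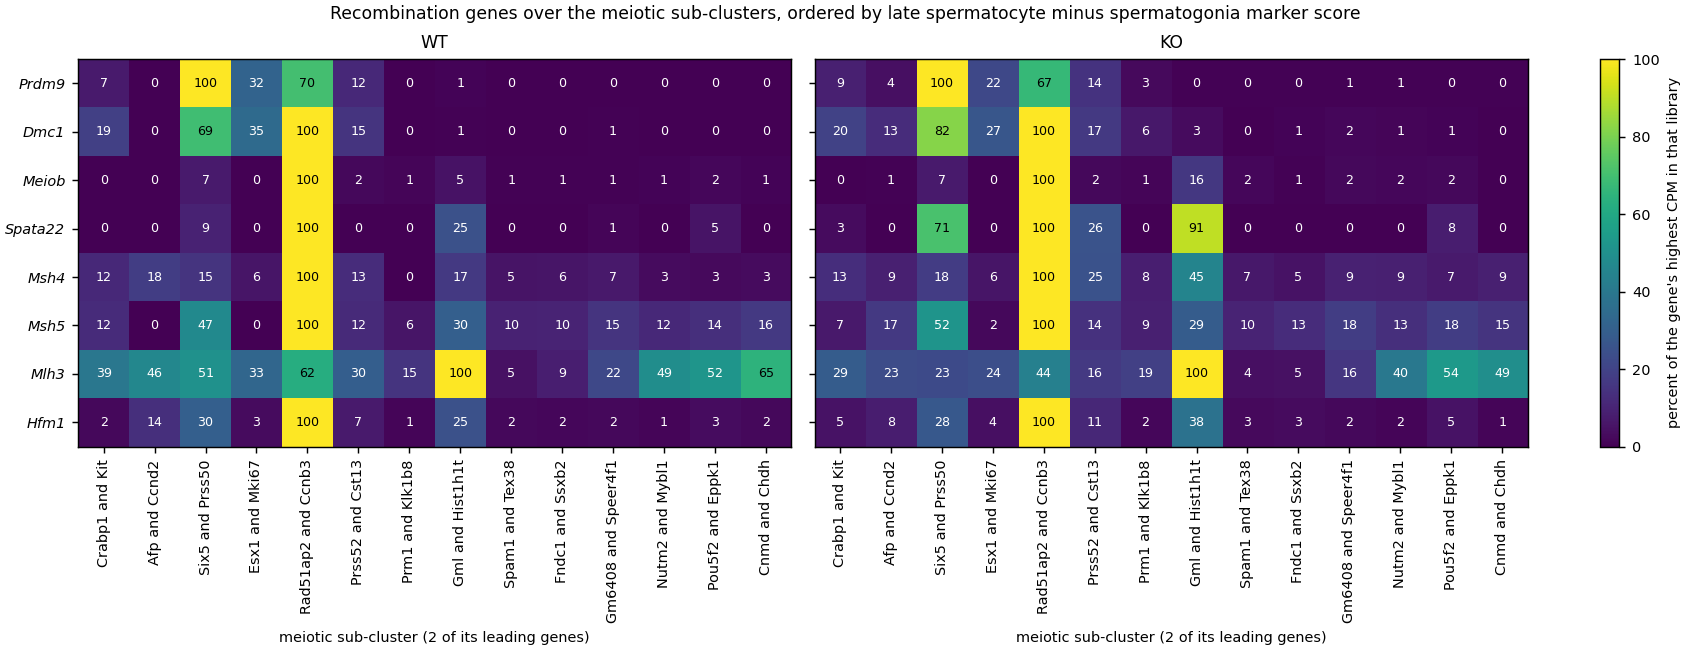
The level of the 8 genes (vertical axis) over the 14 meiotic sub-clusters (horizontal axis), ordered by the late spermatocyte minus spermatogonia marker score, for WT and KO, as percent of each gene's highest level in that library. The Prdm9 maximum lies in the Six5 and Prss50 sub-cluster and the Mlh3 maximum in the Gml and Hist1h1t sub-cluster in both libraries.

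UMIs of several members were often found in 1 early spermatocyte-like cell. In the early spermatocyte-like cluster, 52 of 66 WT cells (78.8%, interval 67.0 to 87.9) and 201 of 266 KO cells (75.6%, 69.9 to 80.6) held a UMI of 3 or more of the 8 genes. In the Piwil1 cluster, with more UMIs per cell, 17.3% and 25.3% did, and in Leydig-like cells 1.09% and 0.857%. Prdm9 and Dmc1 were found together in 31 of the 66 WT and 169 of the 266 KO early spermatocyte-like cells. Meiob and Dmc1 were found together in 34 WT and 106 KO cells, and Dmc1 without Meiob in 15 WT and 121 KO cells. Meiob and Prdm9 were found together in 22 WT and 67 KO cells, and Prdm9 without Meiob in 15 WT and 118 KO cells. Whether any pair met more or less often than the separate detection of its genes would give was not tested.

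**Figure D3:**
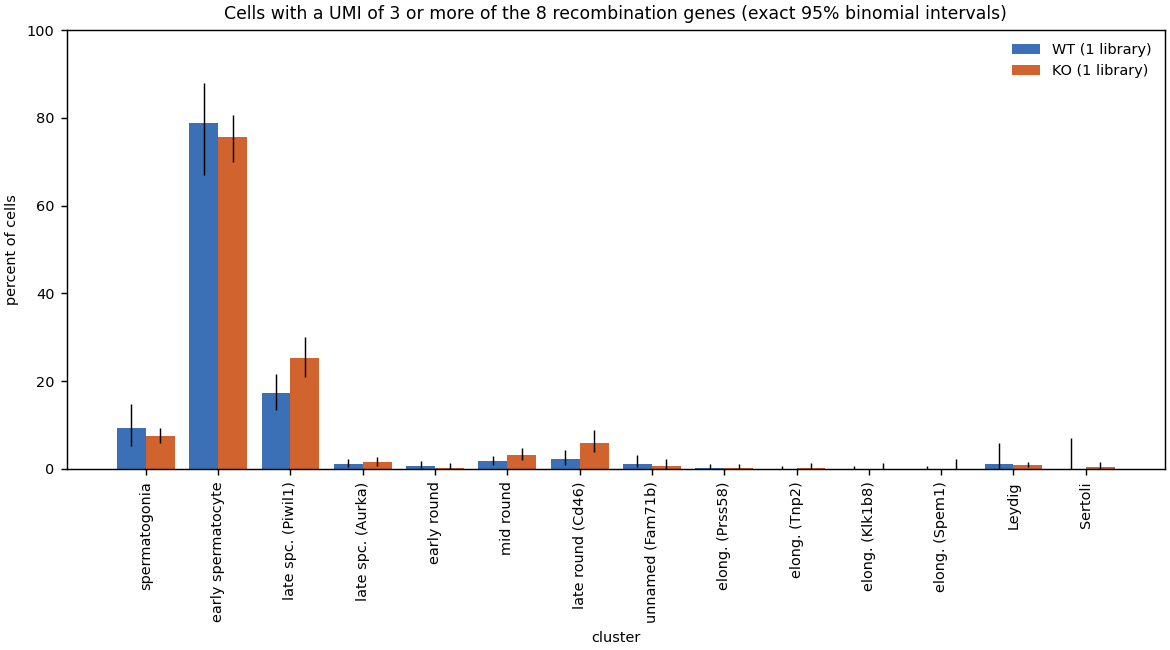
Percent of cells with a UMI of 3 or more of the 8 genes, by cluster, for WT and KO, with exact 95% binomial intervals. The early spermatocyte-like cells stand at 78.8% and 75.6%, and no other cluster shown exceeds 25.3%.

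To compare the genotypes, a gene was taken as past the size rule when the KO to WT ratio of CPM was at least 1.5-fold in either direction and both libraries together had at least 50 UMIs. Such ratios do not tell more RNA per cell from a different mixture of cells in a cluster. In early spermatocyte-like cells, 7 of the 8 genes had enough UMIs, and 1 of them was lower in KO and 0 were higher. Of all 5583 genes compared there, 14.5% were lower and 12.1% higher by the same rule.

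The gene lower in KO was Meiob, at 273 CPM in WT and 180 CPM in KO, a log2 ratio of -0.60 (interval -0.89 to -0.31). Spata22 also had the lower level in KO (log2 -0.78, interval -1.89 to 0.41), but it fell short of 50 UMIs and its interval included 0. Dmc1 (log2 0.45, 0.19 to 0.73) and Prdm9 (0.42, 0.11 to 0.74) had the higher levels in KO without reaching 1.5-fold. Hfm1 (0.22, -0.04 to 0.49), Msh4 (-0.10), Mlh3 (-0.11) and Msh5 (-0.13, -0.76 to 0.54) had intervals that included 0. The median log2 ratio of the 7 genes was -0.10, beside 0.05 over all genes compared.

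The make-up of the cluster, with Six5 and Prss50 cells at 34.8% (23.5 to 47.6) in WT and 50.8% (44.6 to 56.9) in KO, can move these ratios. Within the Rad51ap2 and Ccnb3 sub-cluster, Meiob remained lower in KO, at a log2 ratio of -0.64 (-0.95 to -0.33), as 9.55% of 3654 genes were, with 11.5% higher. Prdm9 there had a ratio of 0.09 and Dmc1 of 0.30 (-0.08 to 0.69). A Prdm9 UMI was found in 32.4% of the WT and 52.4% of the KO cells of this sub-cluster. Stra8 was at 163 CPM in WT and 447 CPM in KO in the same cells (log2 1.45, 0.99 to 1.95). The WT and KO cells may thus differ in stage within the sub-cluster too, and the part of this in the Meiob ratio was not tested. Spata22 there had 10 UMIs in WT (38.9 CPM) and 11 in KO (11.8 CPM), a log2 ratio of -1.72 (-3.09 to -0.32) on under 50 UMIs. With equal weight for each sub-cluster, Meiob in the early spermatocyte-like cells had a log2 ratio of -0.54 and did not reach 1.5-fold. Its ratio was also under 1.5-fold when the recombination genes were kept for clustering (-0.55), where the class held 34 WT and 120 KO cells in place of 66 and 266, when cells were thinned to equal depth (-0.57) and with totals that left out mitochondrially encoded and ribosomal protein genes (-0.58). Prdm9 moved from 0.42 to -0.10 when the recombination genes were kept, in that smaller class, to 0.11 without integration and to -0.03 with thinned cells. Thinning left out cells under 5729 UMIs, 362 of WT and 914 of KO. The early spermatocyte-like cells had a median of 7066.5 UMIs in WT and 6411 in KO, and how many of them remained is not given here.

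**Figure D4:**
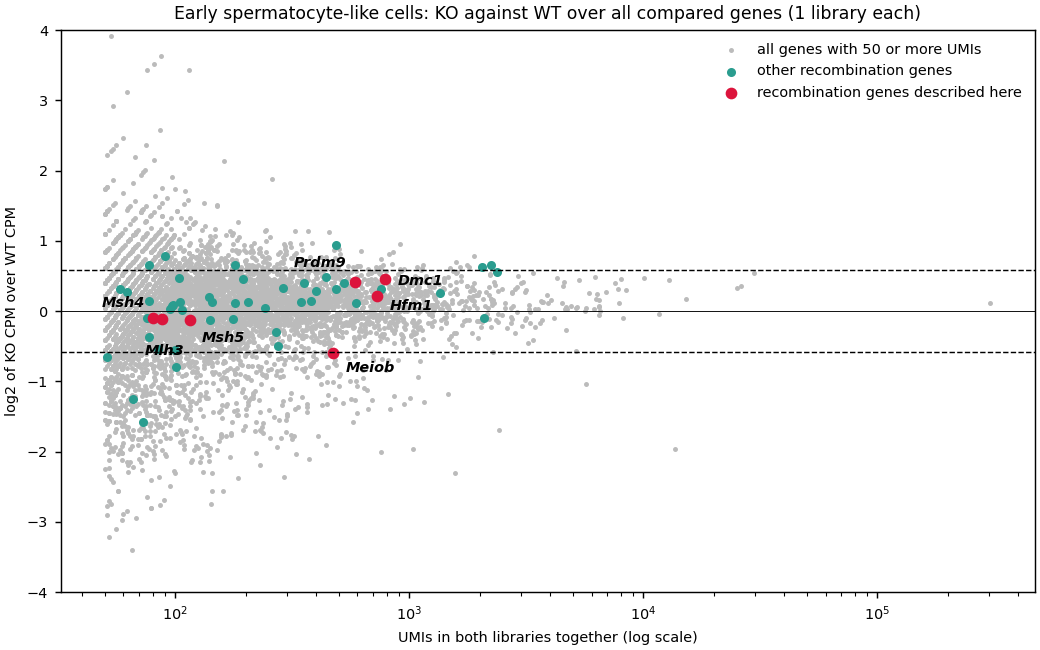
The log2 ratio of KO to WT CPM in early spermatocyte-like cells (vertical axis) against the UMIs of both libraries together (horizontal axis, log scale) for all genes compared (grey), the other recombination genes (green) and the members (red, named), with dashed lines at 1.5-fold; 5 genes outside the range of 4 in either direction and 7 genes at 0 in a library are not drawn. Meiob lies at -0.60, and Prdm9 (0.42), Dmc1 (0.45) and Hfm1 (0.22) lie above 0, all within the cloud of other genes.

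In late spermatocyte-like cells the genes past the rule were all higher in KO. With both clusters pooled, 6 genes were compared, 4 were higher in KO and 0 lower, where 10.1% of 13069 genes were higher and 6.58% lower. Hfm1 was at 16.4 CPM in WT and 30.2 CPM in KO (log2 0.88, 0.67 to 1.09) and Meiob at 6.56 and 10.3 CPM (0.65, 0.31 to 1.00). Msh4 was at 3.88 and 6.72 CPM (0.79, 0.35 to 1.24). The fourth was Dmc1, at 0.79 CPM from 15 UMIs in WT and 2.89 CPM from 46 UMIs in KO (1.87, 1.01 to 2.82), and both levels were under those of Leydig-like cells of the same library, where WT had 3 UMIs. The part of stray RNA in this ratio was not tested, and Dmc1 is counted in the 4 genes and in the median. The median of the 6 genes was 0.72, beside 0.05 over all genes. The class held 1091 WT and 1022 KO cells, but 698 to 718 WT and 646 to 666 KO cells in the 4 settings with another clustering (recombination genes kept, resolution 0.8, no integration, over 1000 genes per cell), in which 2 or 3 members were higher in KO. The early round spermatid-like cluster grew from 458 WT and 420 KO cells to 810 and 762 with those genes kept and to 818 and 781 without integration. At resolution 0.8 a further early round spermatid-like cluster held 337 and 333 cells. Gm9973, a leading gene of the Aurka cluster, was among the leading genes of these clusters. The pooled class may thus mix spermatocytes with round spermatids, and its part in the ratios was not tested.

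By cluster, in the Piwil1 cells Meiob (log2 0.74, 0.33 to 1.16), Msh4 (1.26, 0.63 to 1.91) and Hfm1 (0.98, 0.74 to 1.22) were the 3 of 5 genes compared that were higher in KO, against 11.6% of 9690 genes, and 0 were lower, against 6.98%. Mlh3 had a ratio of 0.51 (0.33 to 0.69), below 1.5-fold, and Msh5 one of -0.08 (-0.52 to 0.35). In the Aurka cluster 0 of 5 genes were higher and 0 lower, with 7.12% and 7.06% of 11363 genes past the rule. Meiob (log2 0.29, -0.37 to 0.94) and Msh4 (0.21, -0.45 to 0.88) had intervals there that overlapped those of the Piwil1 cluster, and the difference between the clusters was not tested. Dmc1, on under 50 UMIs in each cluster, had 7 UMIs in WT and 21 in KO in the Piwil1 cluster and 8 and 25 in the Aurka cluster.

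At the finer level, Hfm1, Meiob and Msh4 were also past the rule in the Gml and Hist1h1t sub-cluster. Of the 5 genes compared in it, 3 were higher in KO and 0 lower, against 10.6% and 9.45% of 6158 genes. Meiob was at 23.8 CPM (16.8 to 32.8) in WT and 52.0 CPM (42.2 to 63.4) in KO, Hfm1 at 99.1 (84.1 to 116) and 165 (147 to 185), and Msh4 at 12.2 (7.36 to 19.1) and 25.2 (18.5 to 33.5). The synaptonemal complex gene Sycp1, a marker of the early spermatocyte list, was at 998 CPM in WT and 1718 CPM in KO in the same cells, and Stra8 had 0 and 15 UMIs. The part of these earlier-stage transcripts in the member ratios was not tested. Meiob was thus lower in KO in the Rad51ap2 and Ccnb3 sub-cluster and higher in KO here (log2 1.13, 0.57 to 1.71), with ratio intervals that did not overlap, while Hfm1 had a log2 ratio of 0.13 in the former and 0.74 (0.45 to 1.02) in the latter. Hfm1 was past the rule in another sub-cluster of late spermatocyte-like cells too, that led by Pou5f2 and Eppk1, at 13.8 CPM in WT and 21.6 CPM in KO (0.65, 0.10 to 1.21), where 5.9% of 7326 genes were higher and 5.94% lower. Msh4 there had 7 and 13 UMIs (1.00, -0.44 to 2.56), and Meiob was at 9.50 CPM in WT and 6.80 CPM in KO (-0.48, -1.33 to 0.34).

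**Figure D5:**
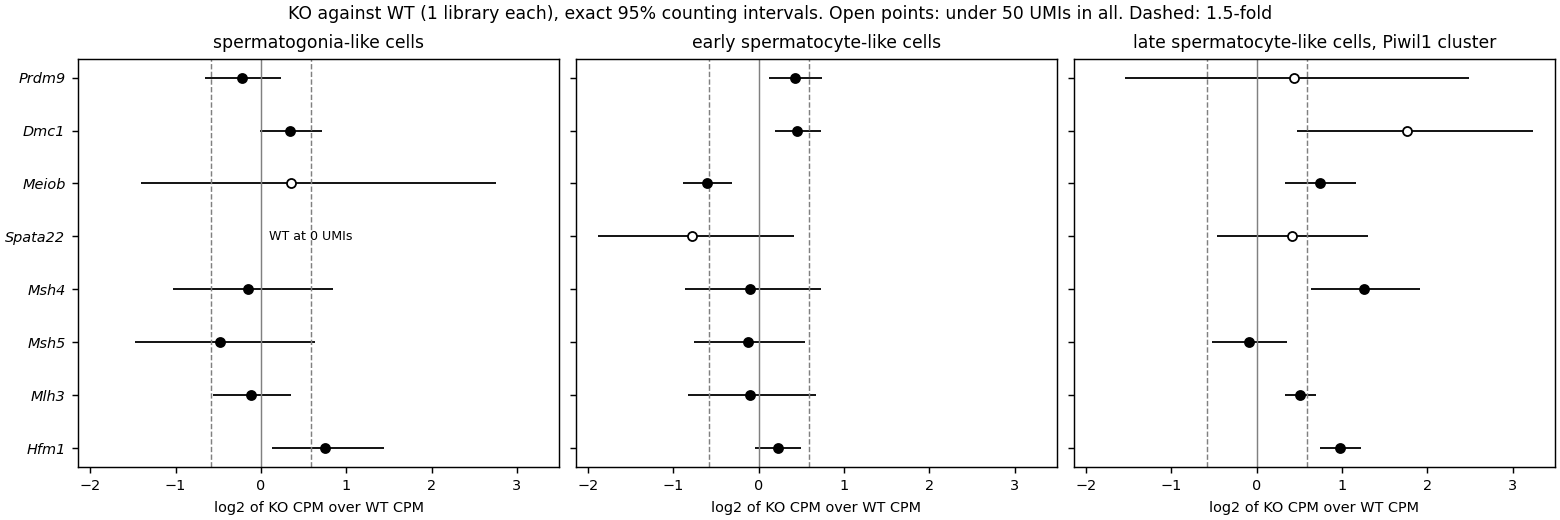
The log2 ratio of KO to WT CPM for the 8 genes in spermatogonia-like cells, early spermatocyte-like cells and the Piwil1 cluster (3 panels), 1 library per genotype, with exact 95% counting intervals; open points have under 50 UMIs in all and dashed lines mark 1.5-fold. Meiob lies below 0 in early spermatocyte-like cells (-0.60), and Meiob, Msh4 and Hfm1 lie above the upper dashed line in the Piwil1 cluster.

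In spermatogonia-like cells 6 genes were compared and 1, Hfm1, was higher in KO, at 15.3 CPM (9.72 to 23.0, 23 UMIs) in WT and 25.8 CPM (22.3 to 29.8, 192 UMIs) in KO (log2 0.75, 0.13 to 1.45), and 0 were lower. Of all 10618 genes, 11.8% were higher and 15.9% lower. Scrublet called 14.1% of the WT and 10.1% of the KO cells of this cluster doublets, and without them the Hfm1 ratio was 0.52 (-0.14 to 1.25). It was 0.15 with equal weight for each sub-cluster, the doublet-rich Prss52 and Cst13 sub-cluster among them. In that sub-cluster Hfm1 had 28 UMIs in WT and 81 in KO (log2 0.75, 0.11 to 1.43), where 22.7% of genes were higher and 22.5% lower. In the Crabp1 and Kit sub-cluster it had 5 and 60 UMIs (1.28, -0.02 to 2.96), beside 10.5% higher and 7.23% lower. In the Afp and Ccnd2 sub-cluster it had 4 and 57 UMIs (-0.64, -2.08 to 1.28) and Dmc1 0 and 70, beside 27.3% higher and 15.3% lower, from 10 WT and 192 KO cells. Over the whole spermatogonia-like cluster, Dmc1 (0.34, -0.01 to 0.71), Prdm9 (-0.22, -0.66 to 0.24) and Mlh3 (-0.12, -0.57 to 0.35) had intervals that included 0.

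In spermatids the ratio of Msh4 was above 1 in every cluster where it had 50 UMIs. At its maximum in the Cd46 cluster the log2 ratio was 0.36 (0.13 to 0.58) and in the mid round cluster 0.49 (0.30 to 0.69), both under 1.5-fold. It passed 1.5-fold in the elongating spermatid-like cluster led by Prss58, at 8.66 CPM in WT and 16.9 CPM in KO (0.96, 0.48 to 1.45), and in the one led by Tnp2, at 6.34 and 12.7 CPM (1.00, 0.40 to 1.6). It was the 1 of 2 genes compared in each that was higher in KO, against 15.3% and 14.1% of all genes, and 0 were lower, against 7.73% and 9.54%.

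Hfm1 was the 1 of 4 genes compared that was lower in KO in early round spermatid-like cells, at 13.3 CPM in WT and 7.81 CPM in KO (log2 -0.77, -1.30 to -0.25), and 0 were higher, where 7.53% of genes were lower and 8.88% higher. Meiob was the 1 of 4 higher in the mid round cluster, on 17 UMIs in WT and 34 in KO (1.28, 0.40 to 2.21), where 12.8% of genes were higher and 7.87% lower. Dmc1 was the 1 of 3 higher in the Cd46 cluster, at 5.47 and 9.05 CPM (0.73, 0.13 to 1.34), where 13.1% of genes were higher and 9.52% lower. It was also the 1 of 3 higher in the cluster led by Fam71b and Cst13 (0.68, 0.15 to 1.22), where 13.8% were higher and 7.36% lower. In Leydig-like cells Dmc1 had 7.80 CPM in KO and 3.05 CPM in WT on 3 UMIs, and Stra8 had 20.2 CPM in KO and 0 UMIs in WT. The part of such stray RNA in the low spermatid counts was not tested.

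The other genes of the pathway were counted by the same rule. In early spermatocyte-like cells 46 of the 53 other genes were compared, 6 were higher in KO and 4 lower, beside 12.1% of all genes higher and 14.5% lower, with a median log2 ratio of 0.13 beside 0.05. The 5 largest were Mcmdc2, an MCM-like protein of strand repair, at 63.9 CPM in WT and 21.4 CPM in KO (log2 -1.58), the crossover factor Rnf212 at 50.7 and 21.4 CPM (-1.25), the break-signalling kinase Atm at 120 and 232 CPM (0.94), the break-making enzyme Spo11 at 63.9 and 36.7 CPM (-0.80), and the joint-cutting nuclease Gen1 at 24.4 and 42.2 CPM (0.79, -0.07 to 1.76). Spo11, Mcmdc2 and Rnf212 were lower in KO, as Meiob was, and Atm and Gen1 were higher.

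In spermatogonia-like cells 5 of 49 other genes were higher in KO and 1 lower, beside 11.8% and 15.9% of all genes, with a median of 0.23 beside 0.05. These were led by the crossover gene Rnf212b, at 5.33 and 15.7 CPM (log2 1.56), and by Mnd1, a DMC1 cofactor, at 9.996 and 24.4 CPM (1.28). Rnf212 was at 13.99 and 25.03 CPM (0.84) and Sfr1, a recombinase cofactor, at 420 and 679 CPM (0.69). Rec114 of the break machinery was the one lower, at 19.3 and 12.2 CPM (-0.66).

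In late spermatocyte-like cells 14 of 50 other genes were higher in KO and 0 lower, beside 10.1% and 6.58% of all genes, with a median of 0.25 beside 0.05. Stra8 in the same cells had 15 UMIs in WT (0.79 CPM) and 53 in KO (3.33 CPM; log2 2.08, 1.23 to 3.01), and its part, or that of stray RNA, in these counts was not tested. Mnd1 was at 1.68 and 5.59 CPM (log2 1.73), the crossover-promoting ubiquitin ligase gene Ccnb1ip1 at 5.72 and 14.2 CPM (1.32) and Tex11, an X-linked crossover gene, at 1.57 and 3.45 CPM (1.13). The resection nuclease Exo1 was at 3.25 and 6.34 CPM (0.96). In the Piwil1 cluster alone, 17 of 43 were higher and 1 lower, beside 11.6% and 6.98% of all genes, and the higher ones included 9 of 19 genes of strand binding, 4 of 12 crossover genes, 3 of 6 genes of break formation and 1 of 6 genes of end resection.

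The likeness of other genes to each member was measured as Pearson's r of log2(CPM + 1) over 24 points, the 12 germ cell clusters of both libraries, which share libraries and depth, so it is given as a description. Prdm9 was closest to Ssr4, the cohesin subunit gene Rad21l and Prss50, each at 0.98, and Dmc1 to Slc16a1 and Cyld at 0.97 and Ube2g1 at 0.96. Meiob was closest to Prss41 (0.97), Ly6k (0.95) and Gml2 (0.94), and Spata22 to Meiob (0.95), Inca1 (0.94) and Prss41 (0.92). Msh5 was closest to Tmem129, Hormad2 and Majin, each at 0.96, the last a gene of the telomere attachment complex. Msh4 was closest to Rad51b (0.91), Fbxo47 (0.89) and Fbxo6 (0.88), and Mlh3 to Kri1, Sdhd and Nsmce3, each at 0.99. Hfm1 was closest to Dnajc3 (0.94) and Ly6k (0.93). Among the members, Prdm9 and Dmc1 had an r of 0.88 and Meiob and Spata22 one of 0.95, while Msh4 had 0.32 with Msh5 and -0.01 with Mlh3.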

How the data were processed

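Per the labels and methods, testis cell suspensions were made into GEXSCOPE libraries. The authors extracted barcodes and UMIs, aligned reads and deposited UMI counts per gene and barcode, without normalization (per the submitters' processing notes: fastp 1, STAR 2.5.3a, featureCounts 1.6.2). The methods name GRCh38 with Ensembl annotation, although the symbols are those of the mouse, and the tables hold more barcodes than the cells the study states, all with over 500 genes.

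Here the libraries were integrated in Seurat 5.3.0 (R 4.3.3, Matrix 1.6.5) with over 500 genes per cell, 2000 variable features, 20 anchor dimensions, 30 principal components, resolution 0.3 and seed 1, leaving the recombination genes out of the features. Meiotic cells were clustered again at resolution 0.8. A cluster was named for the class with the highest mean log2 marker fold, with 1 CPM added, when at least 3 markers had a UMI in 10% of cells and were 2-fold above other cells. Scrublet (scanpy 1.11.5) called 4.22% of WT and 4.96% of KO cells doublets, which were kept. UMIs were summed per cluster and scaled to CPM (Python 3.11.15, pandas 2.3.3, numpy 2.4.6, scipy 1.17.1), with exact Poisson, Clopper-Pearson or conditional intervals at 95%. The limit for 0 counts was 3 counts. Scripts were tested on simulated data.

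Of 62 list names, 61 were found. Named were the members, Alkbh5, leading genes, up to 5 other list genes with the largest ratio past the rule per stage, and the 3 genes most like each member among those with at least 500 UMIs. Some genes under this rule are not reported here. Stra8 and Sycp1 were named after their values were seen. The members and lists were chosen with earlier results of these data known. The alternatives were the features used, resolution 0.8, no integration, doublets removed, over 1000 genes per cell, thinning to 5729 UMIs (leaving out 362 WT and 914 KO cells), other totals, means of single cells, 2-fold, and 20 UMIs.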

Additional observations from a re-analysis of the deposited data

How the results depend on the processing

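No paired analysis was possible because each genotype had 1 library and no test was made, and for the same reason no replicate could be left out. Of 253 recomputed log2 ratios of members in 3 stages, 250 stayed within the counting interval of the value first given, 3 did not, all of Prdm9 in early spermatocyte-like cells, and 11 had the other sign. Spata22 in spermatogonia-like cells, at 0 UMIs in WT, gave no ratio. The count of genes higher in KO among spermatogonia-like cells went from 1 to 0 with the recombination genes kept as features, without integration, with doublets removed, with means of single cells and at 2-fold. The 1 gene lower in KO among early spermatocyte-like cells, Meiob, was lost (0) with those features kept, with thinned cells, with CPM totals that left out mitochondrial and ribosomal protein transcripts, at 2-fold and with equal weight per sub-cluster, an alternative chosen after seeing the data, and 2 genes, with Spata22, were lower at 20 UMIs. The Meiob ratio itself ran from -0.83 to -0.54. Among late spermatocyte-like cells 4 genes higher in KO became 2 without integration and with thinned cells, and 1 at 2-fold. The gene left at 2-fold was Dmc1, whose levels there were under those of Leydig-like cells, and not Hfm1, Msh4 or Meiob. The causes were not tested. With the recombination genes kept, 7 genes were highest in early spermatocyte-like cells in both libraries, Msh4 now among them, and without integration 7 in WT. The 66 WT early spermatocyte-like cells limit every ratio of that stage.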
